A study of Mus musculus with 6 samples.

Results

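Kinesins and cytoplasmic dynein are the motors that walk along microtubules, and their transcripts were measured here in blood platelets of mice with a changed mRNA export receptor. The genes were taken by name: every row of the count tables whose Entrez identifier maps to a mouse protein-coding symbol beginning with Kif or Klc followed by a digit, or with Dync, Dynl or Dctn. This rule found 35 of the 9822 genes in the tables, out of 64 such symbols in the RefSeq table of GRCm38.p6. The other 29 symbols, among them Kif11, Kif20a, Kif23, Kif4 and Kif5c, had no row and were not analysed here. Levels are given as CPM, the count relative to the library total scaled with TMM (edgeR's trimmed mean of M values). Every gene in the tables exceeded 0.5 CPM in at least 3 libraries, so the 35 are members that passed a filter on low values, and a gene can pass it through 1 genotype alone.

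PolyA RNA was sequenced from purified platelets of BalB/c males. The mutants were heterozygous, Nxf1+/C587R, with 1 changed copy of Nxf1, and the controls were wild-type littermates. Each of the 6 libraries, 3 per genotype, came from pooled suspensions of single males, and the labels assign 1 mutant and 1 wild-type pool to each of 3 batches, which the series' design describes as preparation days. The wild-type libraries are repeat records of libraries from another series. How many males a pool held was not stated, and the p-values below rest on the spread between such pools. Nxf1 encodes the receptor that carries most mRNA through the nuclear pore, and platelets, which have no nucleus, hold the mRNA that their parent megakaryocyte packed into them.

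Kinesin motors mostly move toward the growing plus ends of microtubules, and cytoplasmic dynein moves toward the minus ends. Dynein is a large assembly of heavy, intermediate, light intermediate and light chains, and it needs the dynactin complex and an adaptor protein to bind cargo and run far. In megakaryocytes and platelets, dynein slides microtubules past each other while proplatelets lengthen, and motors carry granules along them. Resting platelets keep a ring of microtubules, the marginal band, on which dynein and kinesin also act.

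Totals ran from 25189231 to 29421549 counts per library, and the 35 genes together held 0.173% to 0.185% of the counts. All 13 platelet markers of a fixed list had rows and summed to 46552 to 51301 CPM in mutant and 37285 to 45359 CPM in wild-type pools, with 5 higher and 2 lower, and the leukocyte gene Ptprc lay between 6.82 and 9.72 CPM. Erythroid markers summed to 31515 and 35716 CPM in the mutant and wild-type pools of day 1, against 3970 to 4560 CPM in the other 4 libraries. That day therefore stands apart, and counts without it are given below. Markers of B cells summed to 117 to 161 CPM in mutant and 142 to 203 CPM in wild-type pools, with 2 of 8 lower and 0 higher. Monocyte markers summed to 1771 to 2085 and 1154 to 1592 CPM, of which Lyz2 made up nearly all, while no other of the 6 measured exceeded 2.74 CPM; Lyz2 was higher (0.49, edgeR adjusted p = 0.00935) and Ly6c2 lower (-0.76, 0.0307). Their part in the results below was not tested. In bulk RNA, fewer cells of a type and less RNA per cell cannot be told apart. Nxf1 itself had a log2 fold change of -0.19 ± 0.22 (SE, edgeR adjusted p = 0.604).

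Between genotypes, 8 of the 35 genes rose in mutant platelets, 3 fell and 24 did not pass (edgeR quasi-likelihood test across all 9822 genes, Benjamini-Hochberg adjusted p below 0.05). The cargo motors Kif13a and Kif5b rose most, followed by 4 dynein chains and 2 dynactin subunits, while the kinesin-2 subunit Kif3a and the light chain genes Dynll1 and Dynlt1a fell. Among all genes tested 22.1% were called, 12.9% as higher and 9.16% as lower, beside 31.4%, 22.9% and 8.57% of the motor genes. With upper-quartile factors in place of TMM the counts were 8 higher and 5 lower, and with library size alone 8 and 7. DESeq2 called 8 higher and 2 lower, where it called 20.2% of all genes, 12.3% as higher and 7.94% as lower. The median log2 fold change of the 35 was -0.0024, beside -0.04 over all genes. For 17 of the 35, or 48.6%, the ranges of the genotypes were apart, 11 with the mutant higher, where 36.3% of all genes were apart and 20.4% with the mutant higher. In 28 of the 35 the direction was the same on all 3 days. Among all 9822 genes this held for 5968, or 60.8%, a smaller share. With the preparation day as a block in the edgeR fit, 12 were higher and 6 lower, or 51.4% of the 35, where 40% of all genes were called, 22% as higher and 18% as lower. DESeq2 with the same block called 10 higher and 6 lower, where it called 27.4% of all genes, 17.4% as higher and 10.1% as lower. Without day 1, 6 were higher and 1 was lower by edgeR, where 12.2% of all genes were called, 5.98% as higher and 6.21% as lower, and without day 2 the counts were 4 and 1. The count of lower genes was 1 without mutant replicate 3, wild-type replicate 1 or wild-type replicate 2. It was 6 without wild-type replicate 3 or without day 3. For the other scalings, without day 2 or 3 and without single libraries, the share of all genes called was not computed. The counts under those settings therefore do not set the motor genes apart from all genes.

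**Figure D1:**
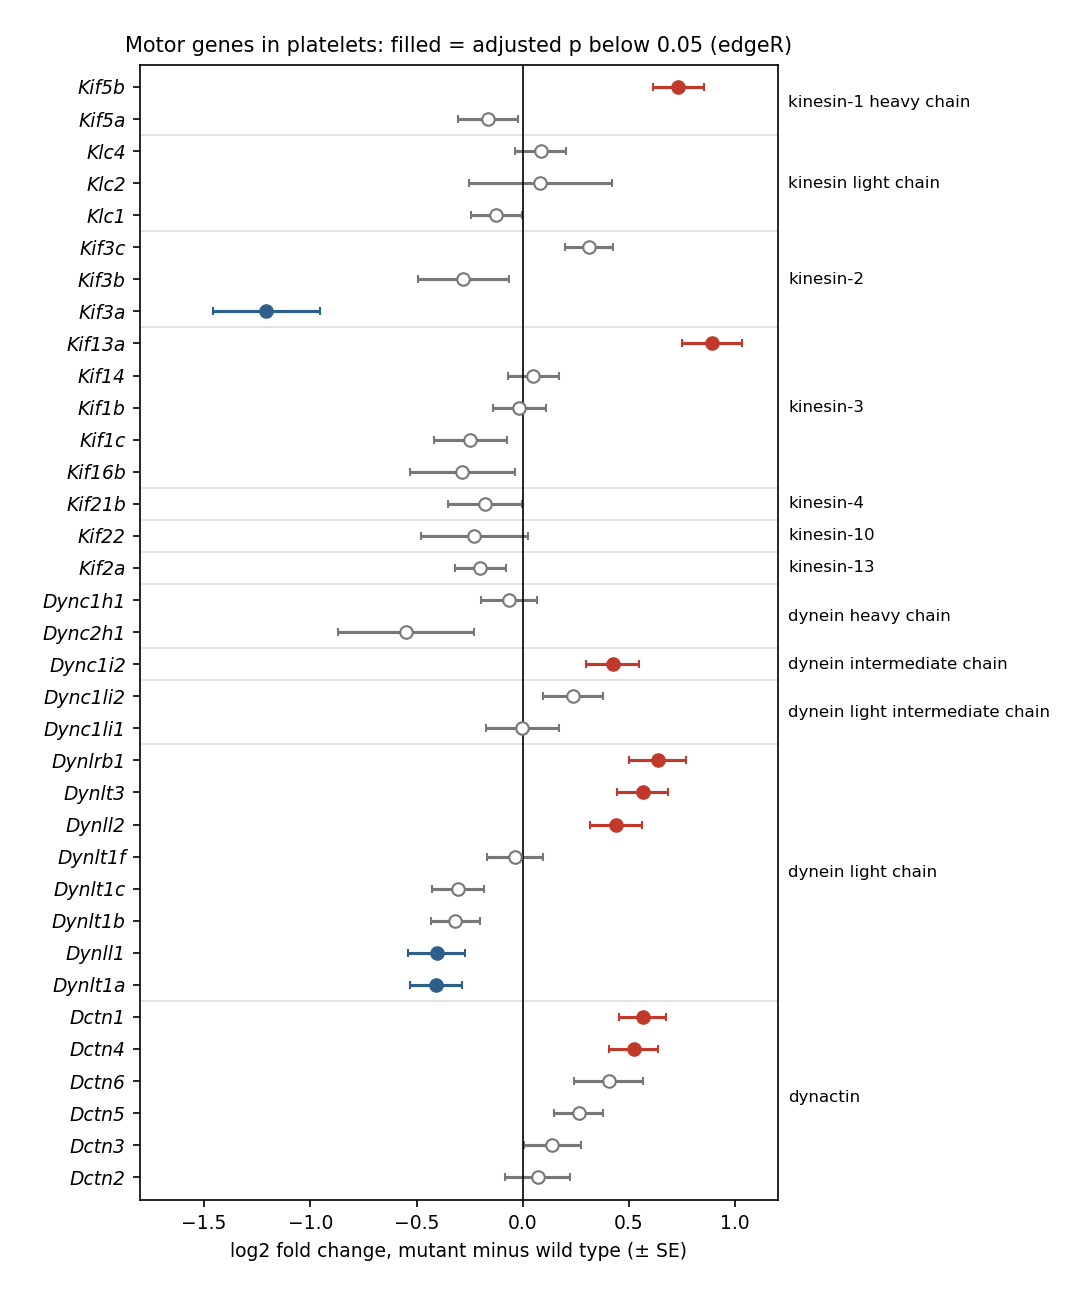
Log2 fold change of each of the 35 genes, mutant minus wild type, with its SE from the edgeR fit, grouped by role. Filled points are the 8 genes that rose (right) and the 3 that fell (left), open points did not pass, and all 6 dynactin subunits lie to the right of 0.

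Levels of different genes are compared per kilobase of the deposited gene length. By that measure the light chain gene Dynlt1b was highest, with 133 ± 3.18 CPM per kilobase in mutant and 166 ± 18.9 in wild-type pools (SD, n = 3 each). Kif2a followed with 120.4 ± 7.06 and 138 ± 16.6, and its libraries, from 116 to 156, overlapped those of Dynlt1b, from 131 to 178. Next came Dynlt1c, Dynlt1a, Dynlrb1 and Dynlt3, with means over the 6 libraries of 115, 108, 93.9 and 76.1 CPM per kilobase, and ranges that overlapped from each to the next. Dctn2 (41.3) and Klc1 (39.98) closed the first 8 and overlapped each other, but the highest library of Dctn2 lay below the lowest of Dynlt3. Of the first 8 genes per kilobase 5 encode dynein light chains. Dynlt1a, Dynlt1b and Dynlt1c among them are near-identical copies, described below, so their separate levels and ranks are uncertain. The deposited length was also far from that of the longest protein-coding transcript for Dynlt1a (745 against 3321 bases) and Dynlt1c (693 against 2589). Without the length correction Kif2a ranked first, at 544 CPM, with Dynlt3 (164), Kif5b (125) and Klc1 (123) after it.

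At the other end stood Dync2h1, the heavy chain of the dynein that works inside cilia, with 0.0460 CPM per kilobase, and Klc2 with 0.243. Of the 34 pairs of neighbours in this order 6 had ranges that did not overlap: Dynlt3 and Dctn2, Dynlt1f and Kif5b, Dctn3 and Dctn1, Dctn6 and Kif3c, Kif21b and Kif22, and Klc2 and Dync2h1. The heavy chain that carries out the motor work of cytoplasmic dynein, Dync1h1, had a mean of 2.19 CPM per kilobase, below its partners Dync1i2 (16.7) and the light chains. Its deposited length is 14398 bases, beside 2788 for Dync1i2 and 686 to 2819 for the light chains. How evenly reads covered long and short transcripts was not tested, so the size of this difference is uncertain. The light intermediate chains Dync1li2 (2.68) and Dync1li1 (1.77) had ranges that overlapped that of Dync1h1.

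**Figure D2:**
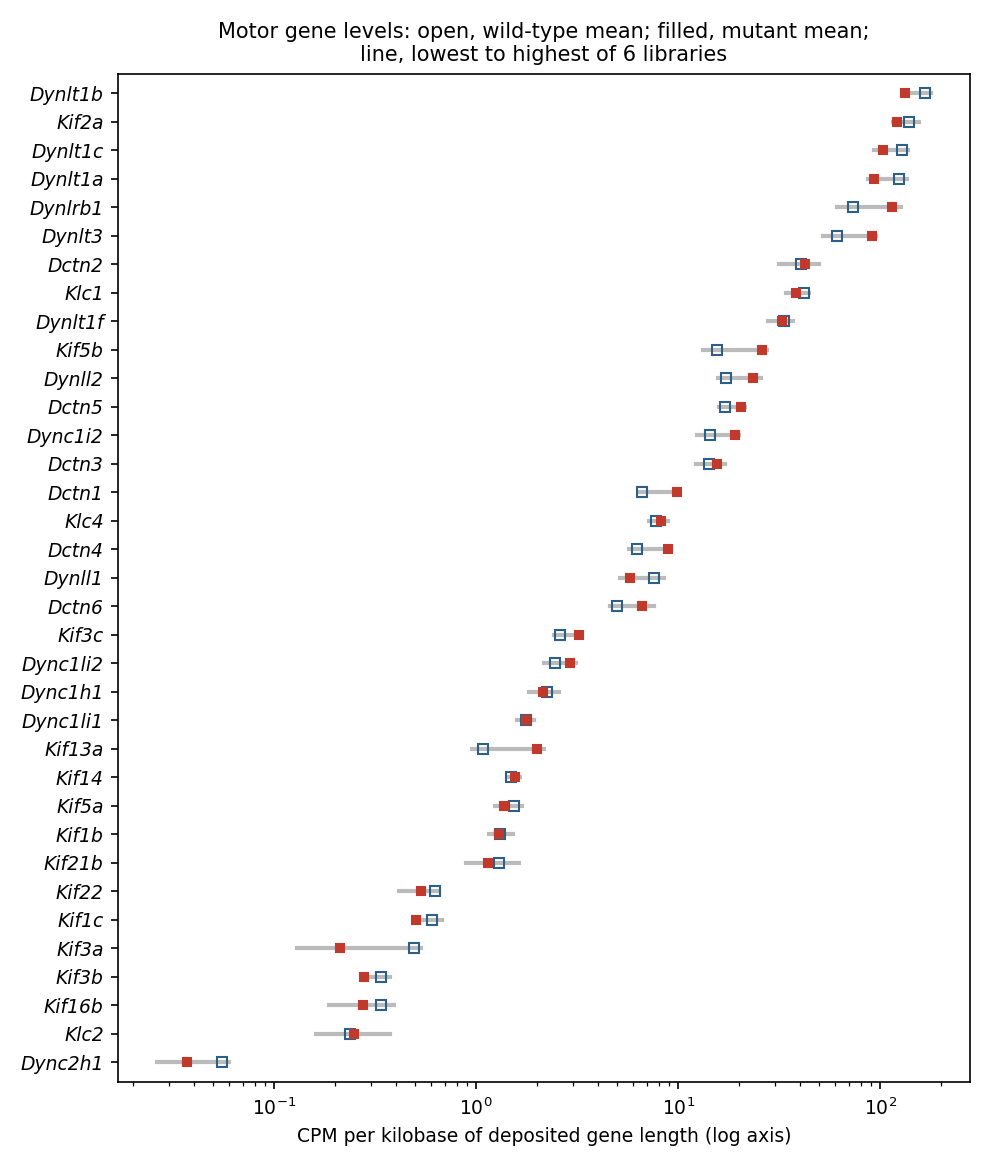
Level of each motor gene in CPM per kilobase on a log axis, ordered by the mean of all 6 libraries. Open squares are wild-type means, filled squares mutant means and lines run from the lowest to the highest library, so that Dynlt1b and Kif2a stand at the top and Dync2h1 at the bottom.

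The shared sequence of some light chain genes limits what their values can show, so it is given before them. Dynll1 (chromosome 5, 115297110 to 115300990, GRCm38.p6) and Dynll2 (chromosome 11, 87979525 to 88003817) encode the LC8 light chains, small dimers that bind short linear peptides in dynein intermediate chains and in many other proteins. Their coding sequences, both 270 bases long in GENCODE M21 (GRCm38), differ at 51 bases and are 81.1% identical. They are shown whole because the genes moved in opposite directions, with capitals marking each base that differs between them.
Dynll1: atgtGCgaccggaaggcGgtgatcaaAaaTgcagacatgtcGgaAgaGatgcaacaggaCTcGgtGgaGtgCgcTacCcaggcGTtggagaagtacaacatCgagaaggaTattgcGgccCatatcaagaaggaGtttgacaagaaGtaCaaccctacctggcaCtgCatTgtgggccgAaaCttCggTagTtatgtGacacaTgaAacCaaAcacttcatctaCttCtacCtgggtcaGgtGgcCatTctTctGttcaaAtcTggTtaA
Dynll2: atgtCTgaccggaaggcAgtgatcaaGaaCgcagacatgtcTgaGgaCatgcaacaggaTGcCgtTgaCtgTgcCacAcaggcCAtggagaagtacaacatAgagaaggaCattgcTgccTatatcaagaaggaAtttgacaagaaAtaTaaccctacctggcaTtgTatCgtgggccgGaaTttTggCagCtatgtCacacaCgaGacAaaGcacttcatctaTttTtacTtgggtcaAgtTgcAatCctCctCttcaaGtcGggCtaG

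The differences are spread along the whole frame. No run of 50 bases of the longest protein-coding Dynll2 transcript occurred in a transcript of another gene, and for Dynll1 3.48% did, none of them in Dynll2 at 1% or more.

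The Tctex1 light chain genes Dynlt1a, Dynlt1b, Dynlt1c and Dynlt1f, by contrast, are copies within chromosome 17, from 6306344 to 6655965. Their coding sequences of 342 bases are identical in Dynlt1a, Dynlt1c and Dynlt1f, and that of Dynlt1b differs at 1 base. The first 90 bases of Dynlt1a and Dynlt1b are shown with that base in capitals, since it is the only coding difference by which reads of these copies could be told apart.
Dynlt1a: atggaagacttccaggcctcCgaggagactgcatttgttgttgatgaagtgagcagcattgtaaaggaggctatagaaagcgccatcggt
Dynlt1b: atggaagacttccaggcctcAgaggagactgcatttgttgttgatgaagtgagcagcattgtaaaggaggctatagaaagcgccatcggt

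In their longest protein-coding transcripts, 67.7% of the 50-base runs of Dynlt1a, 83.2% of Dynlt1b, 93.7% of Dynlt1c and 93.1% of Dynlt1f occur in another gene's transcripts. No source used here says how the authors' counting treated such reads, and the values of single copies are uncertain. Dynlt3, the X-linked relative of these genes, shared no 50-base run with another gene.

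Of the 16 kinesin and kinesin light chain genes 2 rose (12.5%) and 1 fell (6.25%), near or below the 12.9% and 9.16% of all genes. With the day as a block 3 were higher and 2 lower, or 31.25% called, where 40% of all genes were. Kinesin-1 is the classical transport motor, a pair of heavy chains with light chains that bind cargo. Kif5b, the heavy chain made in most tissues, was present at 105, 96.9 and 79.7 CPM in the wild-type pools of days 1, 2 and 3, and at 165, 157 and 146 CPM in the mutant pools. Each mutant pool lay above every wild-type pool. Kif5b rose 1.66-fold, by 0.73 ± 0.12 on the log2 scale (SE, edgeR adjusted p = 0.000194), and the differences within days 1, 2 and 3 were 0.65, 0.69 and 0.88. Its relative Kif5a, known for axonal transport, had 9.64 ± 1.30 CPM in mutant and 10.8 ± 1.26 in wild-type pools (SD, n = 3 each) and a log2 fold change of -0.16 ± 0.14 (edgeR adjusted p = 0.466). The gene records of Kif5a and Dctn2 overlap on chromosome 10 from 127266262 to 127266348. The library kit does not mark strand, so reads from that stretch are uncertain. No 50-base run of the longest protein-coding transcript of either gene occurred in another gene's transcripts. None of the 3 measured kinesin light chain genes passed the TMM-scaled edgeR test, by DESeq2 or at an unadjusted p below 0.05 (0 in each case). Klc1 had 136, 137 and 111 CPM in wild-type and 127, 119 and 105 CPM in mutant pools, with a log2 fold change of -0.12 ± 0.12 (edgeR adjusted p = 0.519). It was called lower with library size alone (0.0462), among genes with at least 10 CPM (0.00876) and in the blocked edgeR fit without day 3 (0.0277). Klc4 had 0.08 ± 0.12 and Klc2, at most 31 counts in a library, had 0.08 ± 0.34 on the same scale. The kinesin-1 heavy chain Kif5b thus had a called change and its light chains had none, and the difference between them was not tested.

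Kif13a (Entrez 16553, chromosome 13, 46749087 to 46929917) encodes a kinesin-3 motor that carries endosomal and Golgi vesicles, among them those with the AP-1 adaptor. It had the largest rise of the 35 genes. Wild-type pools held 8.77, 6.94 and 6.56 CPM on days 1, 2 and 3, and mutant pools held 15.0, 13.4 and 12.9 CPM. No mutant pool overlapped a wild-type pool, and within each genotype day 1 was highest. The rise was 1.85-fold, or 0.89 ± 0.14 on the log2 scale (SE, edgeR adjusted p = 0.000136), with 0.77, 0.95 and 0.97 within the 3 days. Other kinesin-3 genes did not pass. Kif1b, which transports mitochondria and synaptic vesicle precursors, had 19.2 ± 1.15 and 19.5 ± 2.86 CPM (SD, n = 3 each). Kif1c had a log2 fold change of -0.25 ± 0.17, and Kif16b, an endosome motor, had -0.28 ± 0.25, with adjusted p = 0.344 and 0.468 by edgeR.

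The RefSeq promoter table holds 30 entries for 25 of the 35 genes. The 250 bases before the transcript start in that table are printed for Kif13a, which had the largest rise, and Kif3a, which had the largest fall, with capitals marking matches to CCGGAA, the core of ETS family sites, or CCAAT, the NF-Y box, on either strand. The Kif13a stretch is chr13:46929719-46929968, minus strand, and the Kif3a stretch is chr11:53567119-53567368, plus strand (GRCm38.p6). These starts lie 199 and 1668 bases downstream of where the RefSeq gene records begin, so 199 of the 250 bases of Kif13a and all 250 of Kif3a are inside the gene record.
Kif13a: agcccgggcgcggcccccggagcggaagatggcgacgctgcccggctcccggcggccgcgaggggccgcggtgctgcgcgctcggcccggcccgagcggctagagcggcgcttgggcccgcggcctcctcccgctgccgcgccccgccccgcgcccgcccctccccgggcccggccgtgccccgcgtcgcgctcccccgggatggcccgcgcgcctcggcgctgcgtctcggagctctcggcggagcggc
Kif3a: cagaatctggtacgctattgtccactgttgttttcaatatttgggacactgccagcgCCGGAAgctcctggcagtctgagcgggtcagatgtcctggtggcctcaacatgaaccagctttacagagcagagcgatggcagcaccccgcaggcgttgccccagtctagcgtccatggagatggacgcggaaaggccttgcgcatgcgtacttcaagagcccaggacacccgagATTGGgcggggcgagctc

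The Kif3a window holds 1 match to each and the Kif13a window holds none. Both strands were searched, and no match overlapped another in these windows. Of all 32851 entries of the table, 12.03% hold CCGGAA and 33.85% hold CCAAT in these 250 bases, beside 5 and 13 of the 30 entries of motor genes. GATAA, the core of GATA factor sites, was in 2 of the 30 and in 22.6% of all entries, and in neither printed window.

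Kinesin-2 is a motor of KIF3A paired with KIF3B or KIF3C, and it is best known for transport in cilia and axons. Kif3a (Entrez 16568, chromosome 11, 53565701 to 53604248) had the largest fall of the 35 genes. Its counts were 75, 68 and 71 in wild-type and 41, 30 and 19 in mutant libraries, or 2.90, 2.83 and 2.29 against 1.53, 1.23 and 0.705 CPM. The groups did not overlap, and the fall was larger on day 3 than on day 1. Its log2 fold change was -1.21 ± 0.25 (SE, edgeR adjusted p = 0.00167), with -0.92, -1.21 and -1.70 within days 1, 2 and 3. The partner gene Kif3b, at 1.57 ± 0.0541 and 1.91 ± 0.193 CPM in mutant and wild-type pools (SD, n = 3 each), did not pass (-0.28 ± 0.21, edgeR adjusted p = 0.399).

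Kif3c was the most abundant of the 3 and had a positive fold change. Its levels were 17.9, 16.6 and 18.6 CPM in wild-type and 22.0, 21.1 and 22.9 CPM in mutant pools, without overlap. At 0.31 ± 0.11 on the log2 scale it did not pass (edgeR adjusted p = 0.0560), but did with the day as a block (0.000342, and 0.0152 by DESeq2), except without day 2 (0.0649 in the blocked edgeR fit). Reads of Kif3c are uncertain as well, since 38.1% of its transcript's 50-base runs also lie in the overlapping noncoding gene 1110002L01Rik. Per kilobase Kif3c had 2.58 CPM in wild-type pools, beside 0.492 for Kif3a and 0.339 for Kif3b.

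Kif2a encodes a kinesin-13, which does not walk but removes tubulin from microtubule ends. Wild-type pools held 656, 573 and 517 CPM and mutant pools 541, 491 and 488 CPM on days 1, 2 and 3. The mutant pool was the lower on each day, but the ranges overlapped, because the wild-type pool of day 3 lay below the mutant pool of day 1. Its log2 fold change was -0.20 ± 0.12 (edgeR adjusted p = 0.259), and -0.19 with the day as a block (edgeR adjusted p = 0.0126, DESeq2 0.00194). The blocked edgeR call was lost without day 1 (0.288) or day 2 (0.151). Kif2a overlaps Dimt1, which shares 22.5% of its transcript's 50-base runs and fell from 14.2 ± 2.50 to 9.35 ± 1.42 CPM (SD, n = 3 each).

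Of the 11 kinesins fixed as mitotic, which build and divide the spindle, only Kif14 and Kif22 had rows in the tables. Neither passed by edgeR, by DESeq2 or at an unadjusted p below 0.05 (0 in each case). Kif14, which acts in cytokinesis, had 13.6 ± 0.747 CPM in mutant and 13.1 ± 0.469 in wild-type pools (SD, n = 3 each), and Kif22 had 1.099 ± 0.245 and 1.29 ± 0.0627. Of 11 measured genes of a cell cycle list, 1 fell (Tpx2, a spindle factor, -0.76) and 0 rose by edgeR, with 0 higher at an unadjusted p below 0.05 and 0 of either direction by DESeq2; with the day as a block 3 were lower by edgeR. The 1 of 11, or 9.09%, is near the 9.16% of all genes that fell, and with the block 18% of all genes were lower. The immune and neuronal kinesin-4 Kif21b had -0.18 ± 0.17 (edgeR adjusted p = 0.521).

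**Figure D3:**
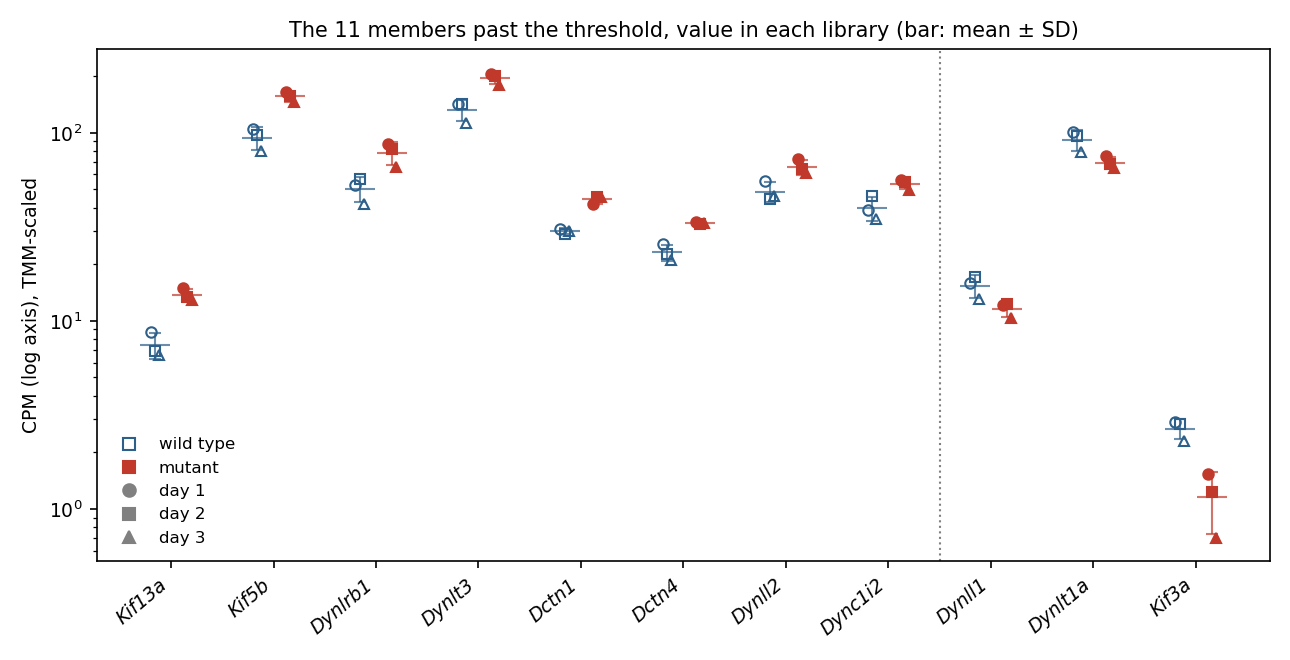
CPM on a log axis of the 11 motor genes past the edgeR threshold in each library, with day 1, 2 and 3 as circle, square and triangle, wild type open and mutant filled, and bars at the mean ± SD (n = 3). For each of the 11 genes the 3 mutant libraries lie all above or all below the 3 wild-type libraries, and Kif3a is the lowest.

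Of 13 cytoplasmic dynein chain genes 4 rose (30.8%) and 2 fell (15.4%), where 12.9% and 9.16% of all genes did. With the day as a block 5 were higher and 4 lower, or 69.2% called, where 40% of all genes were. The heavy chain Dync1h1, which holds the motor, did not pass, at 30.3, 28.1 and 34.2 CPM in mutant and 33.2, 26.4 and 37.2 CPM in wild-type pools of days 1, 2 and 3. Its log2 fold change was -0.06 ± 0.13 (edgeR adjusted p = 0.781), and in both genotypes day 3 was highest and day 2 lowest. Dync1i2 (chromosome 2, 71211676 to 71263303), the intermediate chain that links the motor to dynactin, rose. It had 38.9, 46.0 and 34.7 CPM in wild-type and 55.8, 55.0 and 49.5 CPM in mutant pools, a log2 fold change of 0.42 ± 0.12 (SE, edgeR adjusted p = 0.0169). This call was lost without mutant replicate 1 (0.143), mutant replicate 2 (0.146), wild-type replicate 1 (0.102), day 1 (0.246) or day 2 (0.101), all adjusted p by edgeR, with log2 fold changes of 0.33 to 0.47. In the blocked edgeR fit it was kept without day 1 (0.0110) and without day 2 (0.000143). The light intermediate chains, which bind cargo adaptors, did not pass. Dync1li2 had 0.24 ± 0.14 (adjusted p = 0.263, and 0.0207 with the day as a block by edgeR), and its libraries overlapped. DESeq2 with the block did not call it (0.202), and the blocked edgeR fit lost it without day 1 (0.0663), day 2 (0.158) or day 3 (0.240). For Dync1li1 the mean was 3.62 ± 0.201 CPM in mutant and 3.63 ± 0.364 in wild-type pools (SD, n = 3 each). Dync2h1, with at most 24 counts in a library, had -0.55 ± 0.32 on the log2 scale (edgeR adjusted p = 0.249).

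Of the 8 light chain genes 3 rose (37.5%) and 2 fell (25%), where 12.9% and 9.16% of all genes did. With the day as a block 87.5% were called, where 40% of all genes were. Dynlt1a, Dynlt1b, Dynlt1c and Dynlt1f among the 8 are near-identical copies, so they are not independent genes in these shares. Dynlrb1 (chromosome 2, 155236533 to 155250277), a roadblock light chain that binds the intermediate chain, had 52.8, 56.8 and 41.8 CPM in wild-type and 86.9, 82.3 and 65.8 CPM in mutant pools. It rose by 0.64 ± 0.14 on the log2 scale (SE, edgeR adjusted p = 0.00186), and even the lowest mutant pool, of day 3, exceeded each wild-type pool. Dynlt3 (chromosome X, 9654270 to 9662983) had 142, 143 and 112 CPM in wild-type and 205, 201 and 179.9 CPM in mutant pools, a log2 fold change of 0.57 ± 0.12 (edgeR adjusted p = 0.00181). In both genes day 3 was lowest within each genotype.

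The LC8 genes whose sequences are printed above moved apart. Dynll2 rose from 55.3, 44.3 and 46.1 CPM to 72.5, 64.4 and 60.7 CPM, by 0.44 ± 0.12 on the log2 scale (SE, edgeR adjusted p = 0.0123). Dynll1 fell from 15.9, 17.1 and 13.1 CPM to 12.1, 12.3 and 10.4 CPM, with a log2 fold change of -0.41 ± 0.13 (edgeR adjusted p = 0.0354). The lowest pool of one genotype lay above the highest of the other in each gene. Per kilobase Dynll2 was the higher in both genotypes, at 23.4 and 17.2 CPM against 5.74 and 7.61 for Dynll1 in mutant and wild-type pools. Calls were lost for Dynll2 without mutant replicate 1 (0.171), mutant replicate 2 (0.0830), wild-type replicate 2 (0.121), day 1 (0.104) or day 2 (0.270), all adjusted p by edgeR, at log2 fold changes of 0.32 to 0.43. For Dynll1 the adjusted p was 0.113, 0.0752 and 0.117 by edgeR without mutant replicate 3, wild-type replicate 1 and wild-type replicate 2. It was 0.122 and 0.210 without days 1 and 2, and 0.0640 by DESeq2, which also missed the threshold.

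Among the Tctex1 copies, Dynlt1a fell from 101, 96.2 and 78.8 CPM to 75.1, 68.1 and 64.8 CPM, with a log2 fold change of -0.41 ± 0.12 (SE, edgeR adjusted p = 0.0193). Dynlt1b had 137, 135 and 111 against 106, 101 and 101 CPM in wild-type and mutant pools (-0.32 ± 0.12, edgeR adjusted p = 0.0552). Dynlt1c had 95.1, 93.8 and 75.8 against 78.8, 70.5 and 64.8 CPM (-0.31 ± 0.12, edgeR adjusted p = 0.0839), and both genes passed with the day as a block (2.05e-05 and 4.84e-05). In Dynlt1f, the least abundant copy, the log2 fold change was -0.04 ± 0.13 (edgeR adjusted p = 0.883). Since the copies cannot be told apart in most of their length, their counts were also summed, an alternative chosen after the data were seen. The sum was 363, 354 and 289 CPM in wild-type and 289, 266 and 253 CPM in mutant pools, so the mutant pool of day 1 reached the wild-type pool of day 3. Its log2 fold change was -0.31 ± 0.12 (edgeR adjusted p = 0.0622), and -0.31 ± 0.07 with the day as a block (edgeR adjusted p = 2.01e-05). The call for Dynlt1a alone was lost without mutant replicate 2 (0.0682), mutant replicate 3 (0.0630), wild-type replicate 1 (0.0737), wild-type replicate 2 (0.0515), day 1 (0.111) or day 2 (0.193). Dynlt1a also overlaps Tmem181a, at 2.31 ± 0.394 and 3.10 ± 0.670 CPM in mutant and wild-type pools (SD, n = 3 each).

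**Figure D4:**
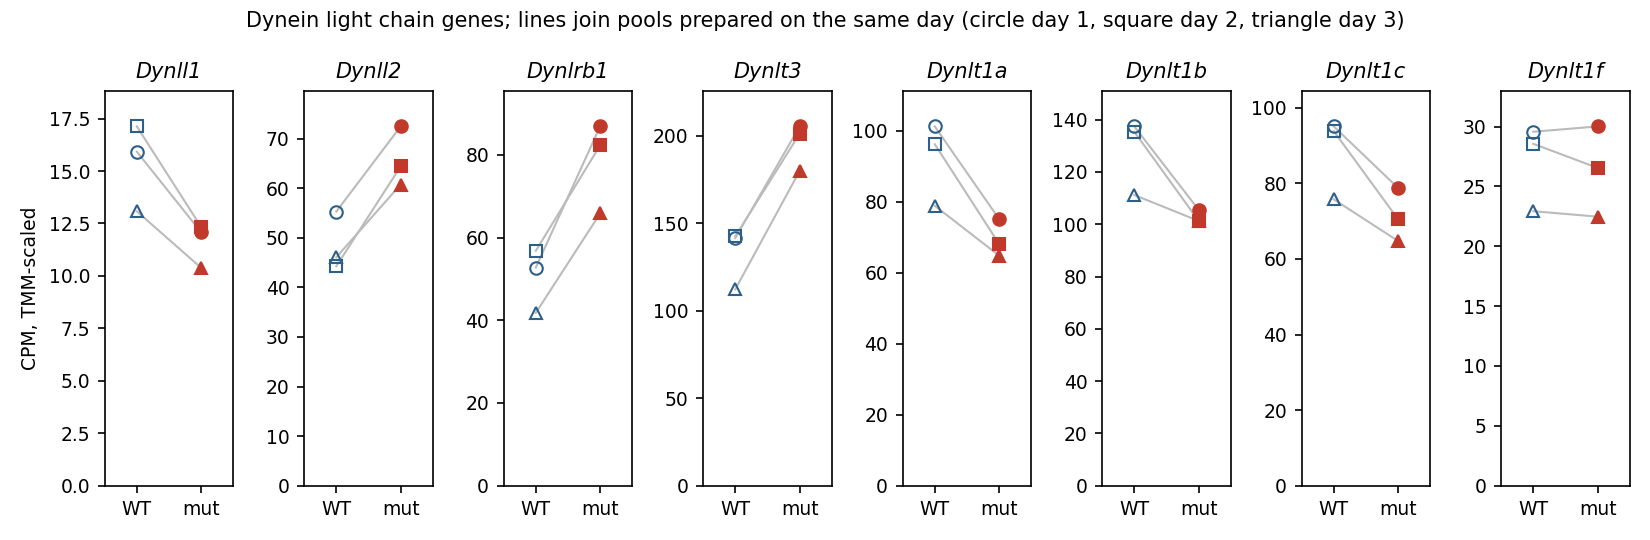
CPM of the 8 dynein light chain genes in wild-type (WT, open) and mutant (mut, filled) pools, each on its own axis from 0, with lines joining pools of the same day. The lines rise on all 3 days for Dynll2, Dynlrb1 and Dynlt3 and fall on all 3 days for Dynll1, Dynlt1a, Dynlt1b and Dynlt1c.

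Dynactin is the activator of dynein, built on a short filament of actin-related protein with a projecting shoulder and arm. Of its 6 measured subunits Dctn1 and Dctn4 rose (33.3%) and none fell by edgeR, where 12.9% and 9.16% of all genes did. There were 0 lower at an unadjusted p below 0.05 and 0 by DESeq2, which called 7.94% of all genes lower. With 6 genes, neither the 2 higher nor the 0 lower can be set apart from these shares. Dctn1 (chromosome 6, 83165909 to 83200118) encodes p150Glued, the arm that holds both dynein and the microtubule. It had 30.9, 28.8 and 30.2 CPM in wild-type and 41.6, 45.7 and 45.7 CPM in mutant pools, a rise of 0.56 ± 0.11 on the log2 scale (SE, edgeR adjusted p = 0.000898). The highest wild-type pool was below the lowest mutant pool. Dctn4, the p62 subunit of the pointed end, had 25.5, 22.7 and 21.1 against 33.5, 32.9 and 33.2 CPM and rose by 0.52 ± 0.11 (edgeR adjusted p = 0.00237). Without day 2 the adjusted p was 0.0975 for Dctn1 and 0.0998 for Dctn4 by edgeR.

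The pointed-end subunits Dctn5 and Dctn6 did not pass in the genotype-only fit of all 6 libraries. With the day as a block, Dctn5 passed by edgeR and by DESeq2, and Dctn6 by edgeR only. Dctn5 had 25.9, 27.9 and 24.3 CPM in wild-type and 32.8, 32.6 and 28.3 CPM in mutant pools, and Dctn6 had 5.57, 4.45 and 4.42 against 6.04, 7.27 and 5.82 CPM, both without overlap. Their log2 fold changes were 0.26 ± 0.12 and 0.41 ± 0.16, with adjusted p = 0.114 and 0.0824 by edgeR, and 0.00169 and 0.00308 with the block. DESeq2 with the block called Dctn5 (adjusted p = 0.0224) and not Dctn6 (0.123). The blocked edgeR fit lost Dctn5 without day 1 (0.215) or day 2 (0.0857), and Dctn6 without day 2 (0.300). Dctn2, the shoulder subunit dynamitin, had 77.4, 95.3 and 61.1 against 81.4, 95.8 and 68.4 CPM. Its days differed more than its genotypes, with a log2 fold change of 0.07 ± 0.15 (edgeR adjusted p = 0.795), and the sign turned to -0.10 without mutant replicate 2 and to -0.08 without wild-type replicate 3. Dctn3 had 0.14 ± 0.13 (edgeR adjusted p = 0.519).

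The dynactin filament and the adaptors that join it to cargo carry other names and were taken from a list of 39 motor adaptors and regulators. Of 31 measured, 9 rose and 0 fell by edgeR, with 0 lower also at an unadjusted p below 0.05, by DESeq2 and with the day as a block, where 13 were higher. The median log2 fold change was 0.24, beside -0.04 over all genes tested. By edgeR 29.0% were higher and 0% lower, where 12.9% and 9.16% of all genes were. With the day as a block 22% of all genes were higher and 18% lower. Bicd2, an adaptor that activates dynein, was at 330.5 ± 36.7 CPM in wild-type and 579.6 ± 48.8 in mutant pools (SD, n = 3 each), a log2 fold change of 0.81 ± 0.12 (edgeR adjusted p = 6.46e-05). Its relative Bicd1 went from 1.34 ± 0.150 to 4.60 ± 0.512 CPM, or 1.79 ± 0.20 on the log2 scale (edgeR adjusted p = 2.51e-06). Actr1a, the actin-related protein of the dynactin filament (0.47), and Capzb, a capping protein of the filament's end (0.49), also rose.

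Kinesins and dyneins that the naming rule leaves out were listed apart. Of 6 measured in a list of 27, which also holds the kinesin-binding protein gene Kifbp, Dnah10, an axonemal heavy chain gene, fell from 3.90 ± 0.685 to 1.69 ± 0.375 CPM (SD, n = 3 each, log2 fold change -1.20 ± 0.22, edgeR adjusted p = 0.000404). That 1 of 6 is 16.7%, where 9.16% of all genes fell. None rose by edgeR, by DESeq2 or at an unadjusted p below 0.05 (0 in each case), where 12.9% of all genes rose by edgeR. With the day as a block 2 were lower, where 18% of all genes were. A list of 6 genes is too short to set these counts apart from the shares of all genes. Of 30 measured microtubule-associated protein genes 3 rose (10%) and 1 fell (3.33%), no larger shares than the 12.9% and 9.16% of all genes. With the day as a block 9 of the 30 were higher, a larger share than the 22% of all genes. In that fit 3 of the 30 were lower, a smaller share than the 18% of all genes. Tacc1 (0.88), Camsap1, which guards minus ends (1.08), and Map7, which recruits kinesin-1 (0.41), were the higher ones and Tpx2 (-0.76) the lower one.

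The alpha and beta tubulin genes encode the track itself, and the tubulin list also holds Tubg1, a gamma tubulin gene. Of 12 measured isotypes 5 rose (41.7%) and 3 fell (25%), where 12.9% and 9.16% of all genes did. With the day as a block 5 were higher and 3 lower by edgeR, where 22% and 18% of all genes were. DESeq2 without the block called 4 higher and 3 lower, where it called 12.3% and 7.94% of all genes. The genes that rose include related Tuba1 genes of chromosome 15. Their shared sequence was not measured, so they may not be independent genes in these shares. Tubb1, the platelet beta tubulin of the marginal band, went from 1704 ± 136 to 2625 ± 159.7 CPM (SD, n = 3 each, log2 fold change 0.62 ± 0.12, edgeR adjusted p = 0.000619), and Tuba4a had 0.59. Tubb2a (-0.54) and Tubb2b (-0.98) fell; they are close copies of each other, so the reads of each are uncertain.

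The genes that rose and those that fell had overlapping ranges of length and exon number. Deposited lengths ran from 686 to 6866 bases in the 8 that rose and from 745 to 5438 in the 3 that fell, and exon numbers of the longest protein-coding transcript from 3 to 38 and from 3 to 18. The GC content of these transcripts was 38.9% to 58.8% and 47.6% to 49.3%. Mean levels over all libraries were 10.6 to 164 CPM for the 8 and 1.91 to 80.7 CPM for the 3, so that Kif3a was the only called gene with under 10 CPM.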

How the data were processed

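Each deposited table holds raw counts for 1 library and a length in bases for each gene, per the file headers. The tools named are CASAVA 1.8.2, Subread and featureCounts and the build is mm10, per the submitters' processing notes. Their settings, including strand and multi-mapped reads, are not named in the sources used here, and the labels' TruSeq kit keeps no strand information. Of 9822 Entrez identifiers 9636 were named from RefSeq (GRCm38.p6), 2 from GENCODE M21 and 184 stayed unnamed.

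Counts were fitted with edgeR 4.0.16 (R 4.3.3): TMM scaling, filterByExpr (0 genes removed), robust quasi-likelihood, genotype as the only term, two-sided, threshold 0.05 over all genes. The SE is the size of the log2 fold change divided by the square root of F. Within-day differences are log2 ratios of CPM. The motor genes, lists and tests were chosen with earlier results of these data known. Named members were those past the threshold in the genotype-only or day-blocked fit and the 8 highest per kilobase, and per list at most 4 called genes with the smallest p. Tried instead were DESeq2 1.42.0, limma-voom (limma 3.58.1), further scalings, low-count filters, a threshold of 0.01, each library or day left out, and the day as a block. The scripts were tested on simulated counts that held genotype differences and no day effect, so that test does not bear on the choice between the genotype-only and the blocked fit. The labels give each day 1 pool per genotype, and deviations from group means correlated at 0.520, 0.350 and 0.547 within days 1, 2 and 3, so the day pairs the pools. Libraries of a genotype differed beyond sampling noise (mean chi-square per gene at least 14.5).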

Additional observations from a re-analysis of the deposited data

How the results depend on the processing

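The count of higher genes, 8, stayed within 1.5 times under each alternative except without day 2 (4), and was 6 to 9 with 1 library left out. The count of lower genes, 3, was less stable. It was 5 with upper-quartile factors, 5 with a minimum mean CPM of 1, 6 with a minimum of 10, 7 with library size alone and 1 at an adjusted p of 0.01. With the preparation day as a replicate block it was 6 by edgeR and 6 by DESeq2, and in the blocked edgeR fit it was 5, 6 and 7 without days 1, 2 and 3 (an alternative chosen after seeing the data). It was 1 without day 1, 1 without day 2 and 6 without day 3, and 1 to 6 with 1 library left out. Except for the fits given with such shares above, the share of all genes called was not computed for these alternatives. The median log2 fold change was -0.049 with upper-quartile factors, -0.087 with library size alone and -0.046 without the 10 most abundant genes, beside -0.089, -0.13 and -0.087 over all genes. The CPM minimum of 10 moved the median of the 3021 genes it kept by -0.16 and each of the 26 motor genes it kept by -0.18 to -0.16, and with that shift Dctn2 went to -0.087. Dctn2 turned to -0.10 without mutant replicate 2 and to -0.078 without wild-type replicate 3, was -0.10 to 0.20 with 1 library left out, and was called in none of these; the cause was not tested. Kif13a, Kif5b, Dynlrb1, Dynlt3 and Kif3a were called, in the same direction, in each alternative that gave them a value. Dctn1, Dctn4, Dynll2, Dync1i2, Dynll1 and Dynlt1a lost their calls without day 2, the last 4 also without day 1, and kept them in the blocked edgeR fit without each day. Dynll1 also missed the threshold with DESeq2-style factors (0.0523) and by limma-voom (0.0502). Kif3a, Kif3b, Kif16b, Kif22, Klc2 and Dync2h1 had at most 75 counts in a library, which limits their precision.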
